A study of Mus musculus with 12 samples.

Results

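The immunity-related GTPases (IRGs) are a mouse gene family of which 7 members, Irgm1, Irgm2, Igtp, Iigp1, Tgtp1, Tgtp2 and Ifi47, were taken by gene symbol from the 45777 genes of the count table. All 7 were found and all 7 passed the filter on low counts. RNA had been sequenced from 12 subcutaneous tumours of the mouse lung cancer line 393P, grown in male 129S2/SvPasCrl mice that were 8 weeks old at injection. The 4 groups of 3 libraries each were MAVS knockout with control treatment, MAVS knockout with MPS1i, MAVS reconstituted with control treatment and MAVS reconstituted with MPS1i. MAVS is the mitochondrial adaptor of cytosolic RNA sensors, and MPS1i is BAY-1217389, which inhibits MPS1, a kinase of the spindle checkpoint, given at 5 mg/kg 2 times daily for 2 days, with harvest on the following day. All groups share the 393P background. Only the injected cells differed in MAVS, so host cells in every tumour kept their own Mavs gene. Titles call the knockout group Luc. The sources used here do not say whether a population was 1 clone or what else separated both populations, so MAVS and any such difference cannot be told apart. The labels number the libraries as replicates without naming separate animals, and the p-values below then measure the spread between these libraries.

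IRG proteins belong to cell-autonomous immunity, the defence that a cell mounts inside itself. They are induced by interferons, above all interferon gamma, and the transcription factor IRF1 takes part in that induction. Effector IRGs such as Iigp1 (Irga6), the Tgtp genes (Irgb6) and Ifi47 (Irgd) load onto the membrane of vacuoles that hold intracellular parasites. Regulatory IRGs, namely Irgm1, Irgm2 and Igtp (Irgm3), sit on the cell's own membranes and keep the effectors inactive there. On GRCm38.p6, 6 members lie in 2 stretches of chromosome 11. Irgm1 (48865245 to 48871420), Tgtp1 (48985329 to 48992246), Tgtp2 (49057196 to 49064212) and Ifi47 (49076587 to 49096987) form the first stretch. Igtp (58199556 to 58207592) and Irgm2 (58214977 to 58222783) are neighbours in the second. Iigp1 lies on another chromosome.

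The members moved together across the tumours, as the values below show, and the sequences before their start sites are therefore given for the chromosome 11 genes. The RefSeq promoter table of GRCm38.p6 held the 6 members on chromosome 11. Each line gives the 100 bases before the start site, 5′ to 3′ on the strand of the gene. Capitals mark matches to the core of the interferon-stimulated response element (ISRE, searched as GAAA, any 2 bases and GAAA again), which IRF factors bind, and to the gamma-activated site (GAS, TTCNNNGAA), an element of promoters that respond to interferon gamma. Both strands were searched, GAS reading the same on both, and matches may overlap.
Igtp, chr11:58199456-58199555, plus strand: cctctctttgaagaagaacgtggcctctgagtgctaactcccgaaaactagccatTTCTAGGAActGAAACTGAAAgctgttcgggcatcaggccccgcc
Irgm2, chr11:58214877-58214976, plus strand: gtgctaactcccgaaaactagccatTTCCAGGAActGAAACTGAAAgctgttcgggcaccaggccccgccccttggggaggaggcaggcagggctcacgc
Tgtp1, chr11:48992247-48992346, minus strand: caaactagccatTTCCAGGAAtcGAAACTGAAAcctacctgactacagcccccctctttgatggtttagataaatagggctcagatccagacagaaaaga
Tgtp2, chr11:49064213-49064312, minus strand: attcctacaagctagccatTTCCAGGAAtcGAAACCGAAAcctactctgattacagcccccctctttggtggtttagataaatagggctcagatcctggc
Irgm1, chr11:48871421-48871520, minus strand: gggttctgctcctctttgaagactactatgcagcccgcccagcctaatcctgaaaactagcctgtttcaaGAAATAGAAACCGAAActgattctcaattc
Gm12250, chr11:58183743-58183842, plus strand: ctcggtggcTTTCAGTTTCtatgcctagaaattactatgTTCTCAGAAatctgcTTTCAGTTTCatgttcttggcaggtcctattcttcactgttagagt

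Of the 6 member promoters of 300 bases each, which run from 250 bases before to 50 after the start, 5 held an ISRE core and 4 held a GAS. These shares stand beside 3.44% of 32851 promoters of the same length for the ISRE core and 8.30% for the GAS. In Igtp, Irgm2, Tgtp1 and Tgtp2 the GAS came first and the ISRE core followed after 2 bases. This order and spacing on 1 strand was noticed in these promoters and then counted, and it stood in 5 of all promoters. The fifth gene was Gm12185, a predicted gene between Irgm1 and Tgtp1 (48904656 to 48927182). Its promoter was 96.6% identical to that of Tgtp2 over 295 aligned bases, and those of Igtp and Irgm2 were 92.1% identical over 265, so these matches are not independent. The GAS began 45 bases before the start of Igtp and 88 before that of Tgtp1. Irgm1 held 2 overlapping ISRE cores and no GAS match. Gm12250 (Irgb10), an effector IRG next to Igtp that was not among the 7, is printed because it held both motifs in another arrangement, with an ISRE core on either side of the GAS. Ifi47 held neither in this window. A match describes letters and was not tested as a binding site.

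**Figure D1:**
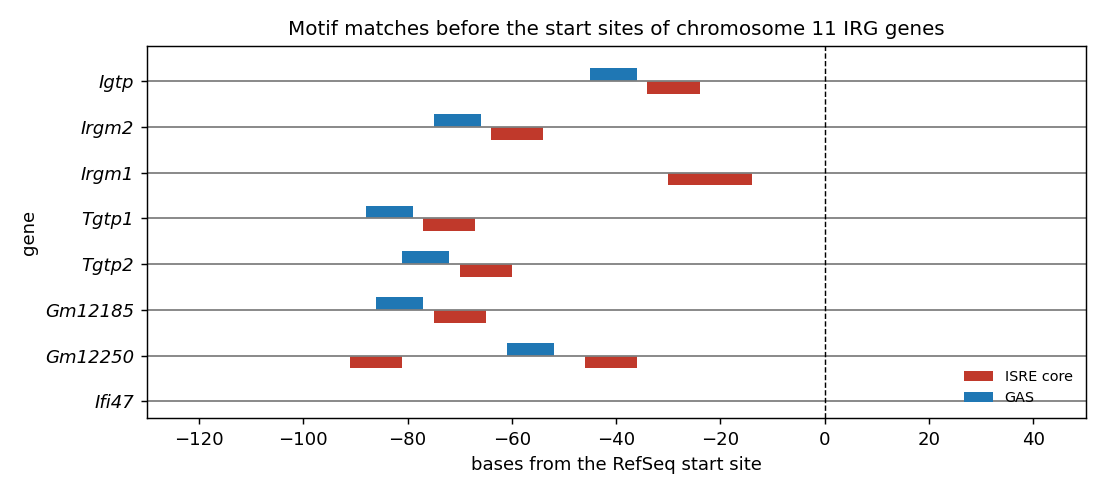
Positions of GAS (blue) and ISRE core (red) matches relative to the RefSeq start site (dashed line, distance in bases) for 8 IRG genes of chromosome 11, each grey line being a promoter. The GAS and ISRE core lie side by side in Igtp, Irgm2, Tgtp1, Tgtp2 and Gm12185, between 25 and 88 bases before the start, and Ifi47 has no match.

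The libraries held 52983715 to 69108411 counts, and each member had at least 1448 counts in every library, so counting error was small beside the spread between tumours. Levels are given in CPM, counts scaled to the library total times its trimmed mean of M values (TMM) factor. Differences are log2 values with the standard error (SE) of a quasi-likelihood fit over 17885 genes, and a gene was called at a Benjamini-Hochberg adjusted p below 0.05. Mavs, the targeted gene, measured 39.4 to 45.7 CPM in the 6 knockout and 50.1 to 85.1 CPM in the 6 reconstituted libraries, a difference of 0.58 ± 0.091 averaged over treatments (log2 ± SE, edgeR adjusted p = 0.0105), and gene counts do not separate the edited, the introduced and the host copy. Reconstituted inhibitor replicate 1 stood apart on the first principal component, and reconstituted control replicate 2 lay at its other end. Reconstituted control replicate 3 stood apart from the other 2 libraries of its group in the IRG genes. Medians of the 7 members with single libraries left out are given beside those they move most.

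The 3 regulatory IRGs were highest in reconstituted tumours under the inhibitor. Irgm1 measured 190.4, 77.1 and 116 CPM in knockout controls, 79.0, 181 and 139 CPM in knockout tumours under the inhibitor, 147, 111 and 392.2 CPM in reconstituted controls and 621, 279 and 538 CPM in reconstituted tumours under the inhibitor. Irgm2 measured 145, 46.7 and 86.4 CPM in knockout controls, 66.2, 145 and 107 CPM in knockout tumours under the inhibitor, 149, 105 and 393 CPM in reconstituted controls and 504, 238 and 539 CPM in reconstituted tumours under the inhibitor. Igtp measured 191, 49.3 and 88.2 CPM in knockout controls, 60.9, 169.9 and 128 CPM in knockout tumours under the inhibitor, 120.5, 83.2 and 439 CPM in reconstituted controls and 914, 324 and 660.4 CPM in reconstituted tumours under the inhibitor. For these 3 genes every reconstituted inhibitor library lay above every knockout library of either treatment. Reconstituted control replicate 3 was the exception among controls. It lay above all 6 knockout libraries and also above reconstituted inhibitor replicate 2, while the other 2 reconstituted controls lay within the range of the knockout libraries for Irgm1 and Igtp. For Irgm2, reconstituted control replicate 1 was just above the highest knockout library. Under the inhibitor the MAVS difference was 1.85 ± 0.52 (log2 ± SE) for Irgm1, 2.01 ± 0.55 for Irgm2 and 2.40 ± 0.70 for Igtp. None passed, with edgeR adjusted p values of 0.116, 0.111 and 0.119.

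The effectors were also highest in reconstituted tumours under the inhibitor. Iigp1 measured 283, 39.2 and 92.4 CPM in knockout controls, 95.5, 212 and 175 CPM in knockout tumours under the inhibitor, 171, 109 and 667 CPM in reconstituted controls and 1098, 386 and 1206 CPM in reconstituted tumours under the inhibitor. This gene had the widest span of the 7, with 30.8 times between its lowest and highest library, against 8.05 times for Irgm1, the narrowest. Tgtp1 measured 239, 53.2 and 116 CPM in knockout controls, 78.2, 243 and 174 CPM in knockout tumours under the inhibitor, 149, 111 and 458 CPM in reconstituted controls and 652, 286 and 700.2 CPM in reconstituted tumours under the inhibitor. Tgtp2 measured 178, 34.3 and 78.8 CPM in knockout controls, 54.2, 174 and 124 CPM in knockout tumours under the inhibitor, 95.8, 70.7 and 332 CPM in reconstituted controls and 544, 230.3 and 556 CPM in reconstituted tumours under the inhibitor. The lowest reconstituted inhibitor library exceeded the highest knockout library for both Tgtp genes. Ifi47 measured 73.4, 24.4 and 41.0 CPM in knockout controls, 25.3, 60.6 and 48.8 CPM in knockout tumours under the inhibitor, 39.3, 30.3 and 135 CPM in reconstituted controls and 280.1, 105 and 172 CPM in reconstituted tumours under the inhibitor. Again the 3 reconstituted inhibitor libraries lay above all 6 knockout libraries, and reconstituted control replicate 3 lay above reconstituted inhibitor replicate 2. Under the inhibitor the MAVS difference was 2.48 ± 0.81 for Iigp1, 1.73 ± 0.66 for Tgtp1, 1.91 ± 0.71 for Tgtp2 and 2.05 ± 0.61 for Ifi47 (log2 ± SE), with edgeR adjusted p values of 0.145, 0.193, 0.183 and 0.126, none of which passed.

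The separate values of Tgtp1 and Tgtp2 are uncertain. In the GENCODE M21 transcripts their longest open reading frames differed at 4 of 1248 bases, and 80.0% of the 100-base windows of Tgtp1 also occurred in Tgtp2. The sources used here do not say how the counting divided shared reads. Igtp shared 5.67% of such windows with Irgm2, and no other pair of members shared any. The next closest coding sequences were those of Igtp and Irgm2 (71.4% identical) and of Igtp and Irgm1 (67.8%), the regulatory group. With the counts of Tgtp1 and Tgtp2 summed, their MAVS difference under the inhibitor was 1.81 (edgeR adjusted p = 0.188).

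**Figure D2:**
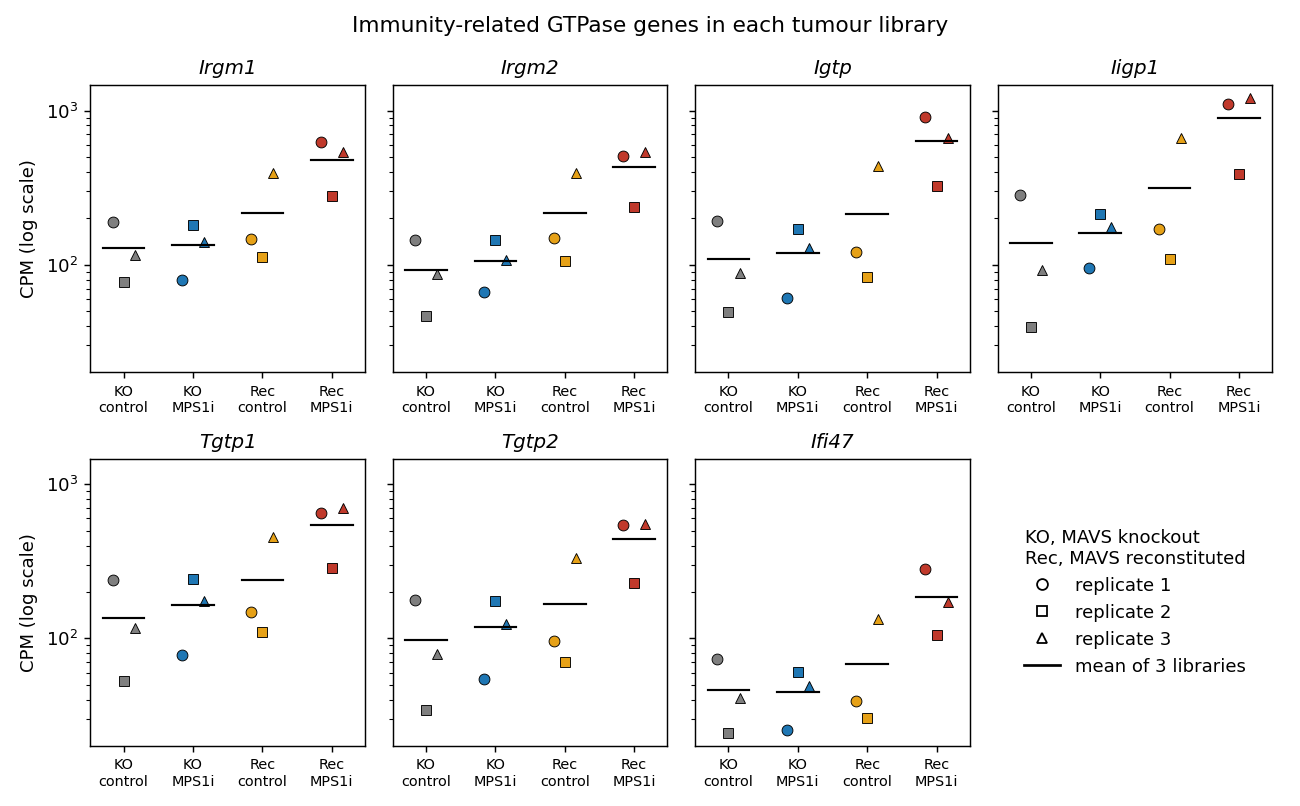
CPM (log axis) of the 7 members in each of the 12 libraries, by group (KO, MAVS knockout; Rec, MAVS reconstituted), with a symbol per replicate number and a bar at the mean of 3. Reconstituted inhibitor libraries lie above all knockout libraries in each panel, while reconstituted control replicate 3 (667 CPM for Iigp1) lies far above the other 2 controls of its group.

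Levels between genes were compared per kilobase of exon (exon union of GENCODE M21). In reconstituted tumours under the inhibitor Igtp was highest at 313 ± 146 CPM per kilobase (SD, n = 3), followed by Iigp1 (287 ± 142), Irgm1 (208 ± 77.4), Tgtp1 (193 ± 80.3), Tgtp2 (158 ± 65.8), Irgm2 (116 ± 44.7) and Ifi47 (98.8 ± 47.0). Each pair of neighbours in this order differed by less than the larger of their SDs. In knockout controls Irgm1 (55.5 ± 25.0) and Igtp (54.1 ± 36.1) led, and Iigp1 (44.1 ± 40.9) came after Tgtp1 (48.2 ± 33.5). On the log2 CPM scale Iigp1 lay 0.263 above the mean of the other 6 members in knockout controls and 1.02 above it in reconstituted tumours under the inhibitor. Irgm1 went from 0.549 to 0.0627 above. These shifts between members are descriptions and were not tested.

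The MAVS effect under MPS1 inhibition, which sets reconstituted beside knockout tumours when both had the drug, was the largest of the 4 comparisons between single groups for every member. All 7 log2 differences were positive (1.73 to 2.48, median 2.01, SE 0.52 to 0.81), against a median of 0.00957 over all genes tested, of which 51.1% were positive. In 7 of 7 members the 3 reconstituted libraries lay above the 3 knockout libraries, which held for 10.9% of all genes. The edgeR test called 0 of 7 (adjusted p 0.111 to 0.193), where 0.649% of all genes were called in either direction. At an unadjusted p below 0.05, 7 of 7 were higher, beside 10.7% of all genes, while none of their adjusted values passed. The members varied together (Pearson correlations of log2 CPM of 0.952 to 0.998 between pairs) and were chosen with earlier results of these data known. Their share is thus not 7 separate results to set against the background. DESeq2 called 4 of 7, namely Irgm2, Irgm1, Igtp and Ifi47, and 7.21% of the genes it tested, and limma-voom called 0 members. With each of the 12 libraries left out in turn the median ran from 1.74 to 2.31 and 0 members were called in any fit. The share of all genes called was less stable. Without reconstituted inhibitor replicate 3 edgeR called 2816 of 18321 genes and still 0 members, and without knockout inhibitor replicate 3 it called 0, so every call by edgeR in this comparison that is named below was lost in that fit.

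**Figure D3:**
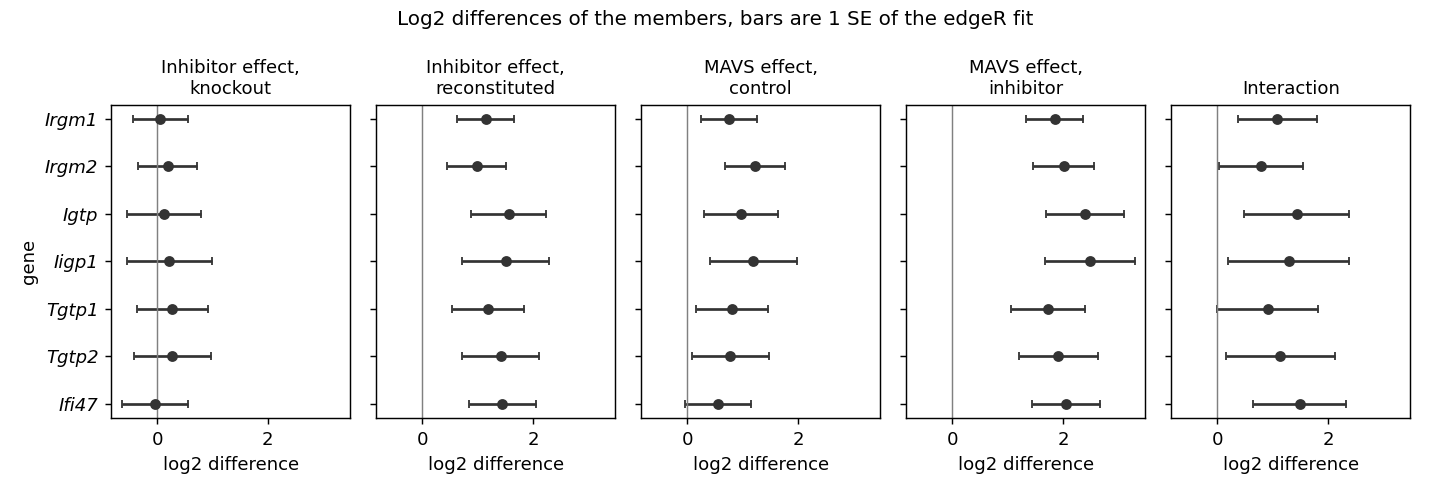
Log2 differences (points) with 1 SE of the edgeR fit (bars) for each member in 5 comparisons, zero marked by a grey line. The MAVS effect under the inhibitor (1.73 to 2.48) lies farthest from zero, and the inhibitor effect in knockout tumours (-0.043 to 0.28) lies at zero within 1 SE.

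Without the inhibitor the MAVS difference of the members, Irgm2 in part excepted, rested on 1 library. The 7 log2 differences were 0.56 (Ifi47) to 1.22 (Irgm2), with a median of 0.81 and SEs of 0.51 to 0.78, beside 0.00298 over all genes. In 0 of 7 members were the groups apart, as they were with reconstituted tumours higher in 15.6% of all genes. Knockout control replicate 1 was the highest knockout control and exceeded both lower reconstituted controls in 6 of 7 members, the exception being Irgm2, where it lay below replicate 1 of the reconstituted controls. The edgeR test called 0 of 7 (adjusted p 0.257 to 0.641) against 0.14% of all genes, with 1 of 7 (Irgm2) at an unadjusted p below 0.05, where 8.85% of all genes were higher. DESeq2 called 0 members and 5.29% of its genes, and limma-voom 0 members. The 7 positive signs stand beside 50.4% of all genes. Without reconstituted control replicate 3 the median was -0.062, with Irgm2 at 0.46, Iigp1 at 0.028 and Igtp at -0.099, and without knockout control replicate 1 it was 1.56. Averaged over both treatments the 7 members differed by 1.27 to 1.84 (median 1.34), all positive as for 50.1% of all genes, and the edgeR test called 0 of 7 where it called 1.56% of all genes. By gene the averaged difference was 1.84 for Iigp1, 1.69 for Igtp, 1.30 for Irgm1, 1.27 for Tgtp1, 1.34 for Tgtp2 and 1.30 for Ifi47. The smallest adjusted p was 0.0686, for Irgm2 (1.61 ± 0.39, log2 ± SE). At an unadjusted p below 0.05, 7 of 7 were higher against 8.12% of all genes. DESeq2 called 3 of 7 (Irgm1, Irgm2 and Igtp) and 5.16% of its genes, and limma-voom 0 members.

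The MPS1 inhibitor effect was read within each genotype. In knockout tumours the members differed by -0.043 to 0.28 between drug and control (median 0.19, SE 0.50 to 0.77), with 6 of 7 positive beside 48.9% of all genes. Both groups overlapped in all 7 members, and 4.47% of all genes had every drug library above every control. The sign of the median changed when knockout control replicate 2 (-0.20) or knockout inhibitor replicate 2 (-0.12) was left out, and without knockout control replicate 1 it was 0.80. In reconstituted tumours the members were higher under the drug by 0.99 (Irgm2) to 1.56 (Igtp), with a median of 1.42 and all 7 positive beside 49.5% of all genes. Between these ends lay Ifi47 (1.45 ± 0.60, log2 ± SE), Iigp1 (1.51 ± 0.79), Tgtp2 (1.42 ± 0.70), Tgtp1 (1.19 ± 0.65) and Irgm1 (1.14 ± 0.51), with edgeR adjusted p values of 0.126 to 0.224 over the 7. Here too the groups overlapped in 7 of 7 members, with control replicate 3 above inhibitor replicate 2, while 14.7% of all genes had every drug library higher. Without that control the median was 2.41, and without the 2 extreme libraries of the first component it was 0.70, an alternative chosen after the data were seen. The edgeR test called 0 members in either genotype, and 0.0% of all genes in both. Without reconstituted inhibitor replicate 3 it called 5683 of 18321 genes in reconstituted tumours, and still 0 members. At an unadjusted p below 0.05 it gave 0 of 7 members in knockout tumours, with 0.654% of all genes higher, and 3 of 7 (Ifi47, Igtp and Irgm1) in reconstituted tumours, where 17.6% of all genes were higher at that level. DESeq2 and limma-voom called 0 members in either, while DESeq2 called 21.9% of its genes in reconstituted and 0.0109% in knockout tumours.

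The difference between both drug effects, the interaction, was positive for 7 of 7 members (0.79 for Irgm2 to 1.49 for Ifi47, median 1.14), as it was for 50.3% of all genes. Its SEs of 0.71 to 1.09 were nearly as large, and edgeR called 0 members (adjusted p 0.284 to 0.549, 0 at an unadjusted p below 0.05 against 13.6% of all genes in that direction) and 0.0% of all genes. DESeq2 and limma-voom called 0 members, where DESeq2 called 7.91% of its genes. The median interaction was 0.36 without knockout control replicate 1, 0.60 without both extreme libraries of the first component and 2.13 without reconstituted control replicate 3. Without reconstituted inhibitor replicate 3 edgeR called 4005 of 18321 genes for the interaction and 0 members. A dependence of the drug effect on MAVS was thus not resolved for these genes with 3 libraries a group. Averaged over genotypes, the drug effect had a median of 0.73, and edgeR called 0 of 7 members and 0.0% of all genes (0 members at an unadjusted p below 0.05 against 4.13% of all genes, and 0 members by DESeq2, with 0.00363% of its genes, or limma-voom). All 7 were positive, as were 49.3% of all genes. The median was 1.19 without reconstituted control replicate 3 and 0.47 without both extreme libraries of that component.

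**Figure D4:**
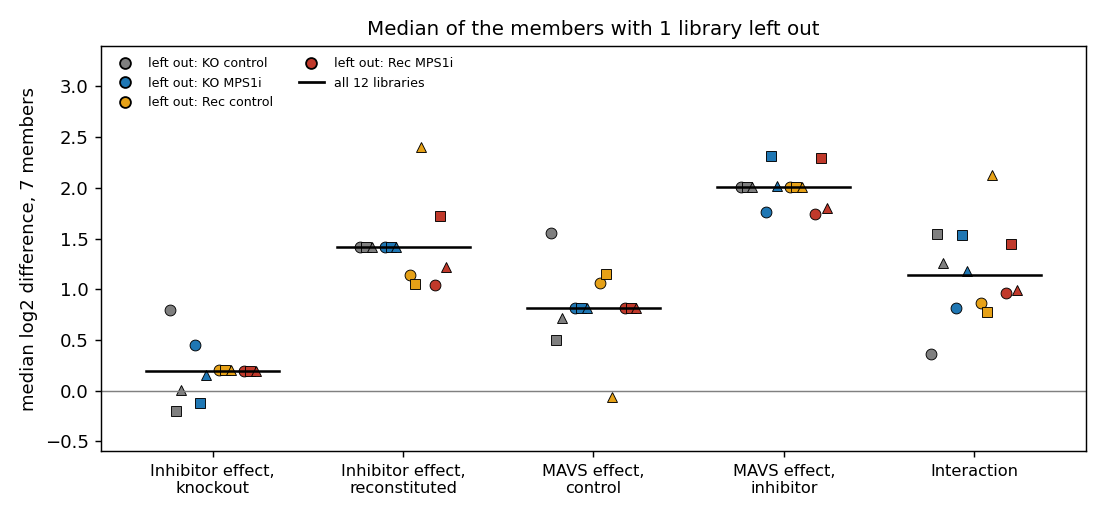
Median log2 difference of the 7 members in 5 comparisons with all 12 libraries (black bar) and with each library left out in turn (points, coloured by the group of the library left out, same symbols per replicate number as in the plot of CPM). The MAVS effect under the inhibitor stays between 1.74 and 2.31, while the MAVS effect in controls is -0.062 without reconstituted control replicate 3.

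Within each group the members varied together. In 3 of the 4 groups all 7 members put the 3 libraries in the same order, namely replicates 1, 3 and 2 from highest to lowest in knockout controls, 2, 3 and 1 in knockout inhibitor tumours and 3, 1 and 2 in reconstituted controls. In reconstituted inhibitor tumours replicate 2 was lowest for all 7, and replicate 1 was highest for 3 of them. Over the 12 libraries the 21 pairs of members had Pearson correlations of log2 CPM of 0.952 to 0.998, and 0.946 to 0.999 after the group means were removed. The 7 genes are thus not 7 separate measurements of a tumour. Centred on each gene's mean and averaged over the members, log2 CPM ran from -1.83 in knockout control replicate 2 to 1.96 in reconstituted inhibitor replicate 1, with 0.147 in knockout control replicate 1 and 1.24 in reconstituted control replicate 3.

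The genes most like this averaged pattern were sought among 11992 genes whose mean log2 CPM reached 1. Members and genes with symbols of Gm and a number, Rik or LOC were left out of the search. Relatives such as Gm12250 (0.994, given below) were therefore not ranked. The genes found were mostly guanylate-binding proteins, the other large family of interferon-induced GTPases of cell-autonomous immunity. By Pearson correlation over 12 libraries they included Gbp5 (0.998), Gbp2 (0.997), Gbp2b (0.995), Gbp6 (0.993), the chemokine gene Cxcl11 (0.991), Gbp4 (0.991) and Gbp10 (0.989). Their Spearman values were 0.972 to 0.993. Without the 2 libraries farthest from the median, reconstituted inhibitor replicates 1 and 3, r was 0.977 to 0.997, and with group means removed 0.978 to 0.995. These genes were picked for the likeness, so the values are a description, and 189 of the 11992 genes searched had an r above 0.9.

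Other genes of the IRG family, from a list of 9 in the count table, split in their pattern. Gm12250 measured 29.4, 5.68 and 12.7 CPM in knockout controls, 10.9, 24.7 and 16.3 CPM in knockout tumours under the inhibitor, 18.3, 13.5 and 80.7 CPM in reconstituted controls and 155, 52.8 and 151 CPM in reconstituted tumours under the inhibitor. The effector gene Gm12250 had a correlation of 0.994 with the averaged pattern of the 7 and a MAVS difference of 2.79 ± 0.77 (log2 ± SE) under the inhibitor (edgeR adjusted p = 0.112). The predicted IRG genes on chromosome 18 had correlations of 0.988 (Gm4951), 0.971 (Gm4841) and 0.856 (F830016B08Rik). Gm12185, chosen after its promoter was seen, had means under the drug of 10.8 CPM (SD 4.40, n = 3) without and 45.0 CPM (SD 21.3, n = 3) with MAVS in the injected cells, and a correlation of 0.985. 9930111J21Rik1 measured 6.13, 3.86 and 7.89 CPM in knockout controls, 10.4, 7.59 and 6.03 CPM in knockout tumours under the inhibitor, 17.5, 10.8 and 17.1 CPM in reconstituted controls and 2.89, 2.82 and 19.2 CPM in reconstituted tumours under the inhibitor. This gene lies beside Tgtp1 on chromosome 11 (48946150 to 48979381), yet its 2 lowest libraries were reconstituted inhibitor replicates 2 and 1, in which the members lay above all knockout libraries, and its correlation with them was 0.0294. Its near-copy 9930111J21Rik2, between Tgtp1 and Tgtp2 (49037660 to 49051242), gave 0.187. Their MAVS differences in controls were 1.34 ± 0.64 and 1.00 ± 0.49, with every reconstituted control above every knockout control, as in 15.6% of all genes. Under the inhibitor these differences were 0.049 ± 0.63 and 0.13 ± 0.49, and none passed in either comparison.

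Irgq and Irgc1, IRG relatives on chromosome 7, did not share the pattern. Their correlations with the averaged pattern of the 7 were negative, at -0.605 for Irgq and -0.747 for Irgc1. In knockout controls Irgq had a mean of 33.4 CPM (SD 5.04, n = 3), and where MAVS was reconstituted and the drug given its mean was 27.1 CPM (SD 5.72, n = 3). The same means for Irgc1 were 1.13 CPM (SD 0.378, n = 3) and 0.614 CPM (SD 0.243, n = 3). Of the 9 genes, 1 was called in any comparison, namely for the MAVS effect averaged over treatments, where 1.56% of all genes were called. Gm5431, between Irgm1 and Tgtp1 (48887422 to 48902152), was higher with MAVS averaged over treatments by 1.13 ± 0.24 (edgeR adjusted p = 0.0428), with 4.76, 2.53 and 4.34 and 3.24, 4.05 and 2.97 CPM in the knockout and 4.88, 5.20 and 10.4 and 10.2, 6.51 and 11.3 CPM in the reconstituted groups, control before inhibitor. All 6 reconstituted libraries lay above all 6 knockout libraries for this gene, and the share of all genes with this separation was not counted. The Gm and Rik genes have close relatives in the family, so reads may be divided between them. Under the inhibitor the 9 genes had a median MAVS difference of 1.44, and in controls of 1.00.

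**Figure D5:**
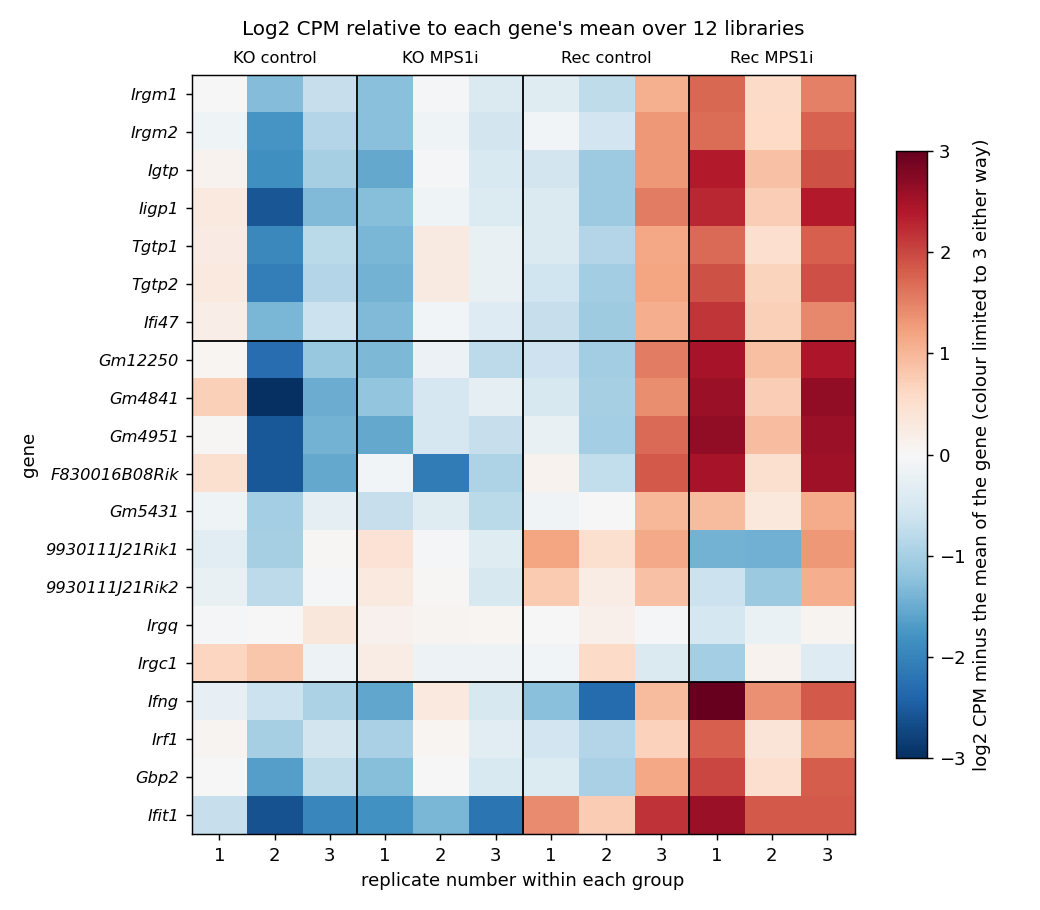
Log2 CPM of each gene relative to its mean over the 12 libraries (red higher, blue lower, colour limited to 3 either way), with the 7 members on top, then 9 other IRG genes, then Ifng, Irf1, Gbp2 and Ifit1, and libraries ordered by group and replicate number. The members, Irf1 and Gbp2 share 1 pattern that includes the high reconstituted control replicate 3 (1.24 for the mean of the members), while Ifit1 is high in all 6 reconstituted libraries.

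The interferon gamma axis, the pathway known to drive IRG transcription, was read from a list of 20 genes. Its ligand gene Ifng was at low levels. Ifng measured 1.05, 0.793 and 0.634 CPM in knockout controls, 0.400, 1.55 and 0.891 CPM in knockout tumours under the inhibitor, 0.502, 0.225 and 2.44 CPM in reconstituted controls and 10.4, 3.26 and 4.61 CPM in reconstituted tumours under the inhibitor. The highest 3 libraries were those of the reconstituted inhibitor group, followed by reconstituted control replicate 3. Over 12 libraries the correlation with the averaged pattern of the 7 was 0.885 for Ifng, beside 0.903 for Stat2 and 0.880 for Irf9. Ifng had the members' order of libraries in 2 of the 3 groups where all 7 members shared one. Its MAVS difference under the inhibitor was 2.68 ± 0.79 (log2 ± SE, edgeR adjusted p = 0.12) and in controls 0.35 ± 0.78 (adjusted p = 0.84). Irf1 measured 339, 160.0 and 217 CPM in knockout controls, 163, 332 and 258 CPM in knockout tumours under the inhibitor, 215, 175 and 518 CPM in reconstituted controls and 1106, 422 and 774 CPM in reconstituted tumours under the inhibitor. Irf1, an activator of IRG genes, had the order of libraries that all 7 members shared in 3 of the 3 groups where they shared one, and differed by 1.61 ± 0.47 under the inhibitor without passing (edgeR adjusted p = 0.119). Nlrc5, the activator of MHC class I genes, had 1.23 ± 0.42 and did not pass. Called in this list were Stat2 (1.65 ± 0.28, edgeR adjusted p = 0.0316) and Irf9 (1.14 ± 0.20, adjusted p = 0.0321), both transcription factor genes of type I interferon signalling. The receptor genes had 0.059 (Ifngr1) and 0.30 (Ifngr2). Over the list the median was 1.00 under the inhibitor, with 2 of 20 called by edgeR beside 0.649% of all genes. At an unadjusted p below 0.05 there were 13 of 20, beside 19.7% of all genes. In controls the median was 0.31, with 0 called beside 0.14% of all genes. There 2 of 20 had an unadjusted p below 0.05, beside 18.7% of all genes.

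Type I interferon ligands were near or at 0. Ifnb1 had 0 to 3 counts per library, Ifna1 0 to 1, Ifna4 0 to 2 and Ifna2 and Ifna5 0, and 3 counts correspond to 0.0434 to 0.0566 CPM, so these transcripts were not detectable or barely so at this depth. The receptor genes Ifnar1 and Ifnar2 had MAVS differences of -0.12 and 0.40 under the inhibitor. A list of 13 autophagy genes held genes of the conjugation system, which effector IRGs need to reach vacuoles, together with Becn1 and Sqstm1. Its median MAVS difference was 0.11 under the inhibitor and -0.072 in controls. edgeR called 0 of 13 in each (2 and 5 at an unadjusted p below 0.05, beside 19.7% and 18.7% of all genes). Averaged over treatments it also called 0 of 13. In the list of 6 ubiquitin and ubiquitin-like genes linked to vacuole targeting, edgeR called 0 under the inhibitor and 0 in controls. At an unadjusted p below 0.05 these counts were 5 and 2, beside 19.7% and 18.7% of all genes. Averaged over treatments, 3 of 6 were called higher with MAVS, where 1.56% of all genes were called in either direction. These were the ubiquitin ligase genes Rnf213 (1.07 ± 0.16, edgeR adjusted p = 0.00687) and Trim21 (0.89 ± 0.19, adjusted p = 0.0421) and the ISG15-activating enzyme gene Uba7 (0.90 ± 0.19, adjusted p = 0.0435).

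Set beside other interferon-induced families, the IRG genes resembled the guanylate-binding proteins more than the Ifit genes. Under the inhibitor the median MAVS difference was 2.01 for the 7 IRG members, 2.35 for 11 guanylate-binding protein genes and 3.64 for 6 Ifit genes, which are induced chiefly by type I interferon and RNA sensing. In controls these medians were 0.81, 0.96 and 2.88. The control groups were apart in 0 of 7 IRG genes, 0 of 11 guanylate-binding protein genes and 6 of 6 Ifit genes, beside 15.6% of all genes. Under the inhibitor edgeR called 5 of 6 Ifit genes, 0 of 11 guanylate-binding protein genes and 0 of 7 IRG genes, beside 0.649% of all genes. The 5 were Ifit3b (4.44 ± 0.58, log2 ± SE), Ifit1 (3.91 ± 0.52), Ifit3 (4.12 ± 0.56), Ifit1bl1 (3.38 ± 0.50) and Ifit2 (2.70 ± 0.41). In controls edgeR called 2 of 6 (Ifit3b and Ifit1), 0 of 11 and 0 of 7, beside 0.14% of all genes. Averaged over treatments it called 5 of 6, 1 of 11 and 0 of 7, beside 1.56% of all genes. The 1 of 11 was Gbp8 (1.34 ± 0.29, log2 ± SE, edgeR adjusted p = 0.0491). Ifit1 measured 9.60, 2.53 and 4.03 CPM in knockout controls, 4.41, 6.07 and 3.39 CPM in knockout tumours under the inhibitor, 41.5, 26.4 and 70.3 CPM in reconstituted controls and 95.2, 56.6 and 56.5 CPM in reconstituted tumours under the inhibitor. For Ifit1 all 6 reconstituted libraries lay above all 6 knockout libraries, which was true of 0 of the 7 IRG members. The share of all genes with this separation was not counted. The differences between families were not tested. Of a list of 3 other interferon-induced large GTPase genes, 2 were called higher with MAVS under the inhibitor. These were the antiviral genes Mx2 (2.73 ± 0.33) and Mx1 (2.33 ± 0.35, edgeR adjusted p = 0.0133 and 0.0235).

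Markers of the cells that a piece of tumour can hold ran with the members in part. All 7 T cell markers were tested, none was at 0 over all libraries, and their summed level was 17.3, 9.97 and 10.8 CPM in knockout controls, 12.9, 11.9 and 18.5 in knockout inhibitor tumours, 9.96, 9.23 and 20.8 in reconstituted controls and 22.5, 27.0 and 25.6 in reconstituted inhibitor tumours. The highest controls of either genotype, knockout replicate 1 and reconstituted replicate 3, were also those with the most IRG transcript. The T cell sum had the members' shared order of libraries in 2 of 3 groups, both of them controls. Among knockout inhibitor tumours this sum was lowest in replicate 2, where the members were highest. Among reconstituted inhibitor tumours it was highest in replicate 2, where all 7 members were lowest. Cytotoxic and NK cell markers (7 of 7 tested) summed to 10.7 to 35.3 CPM and 15.8 to 29.9 CPM in the knockout groups and to 54.8 to 87.2 and 97.1 to 126 CPM in the reconstituted groups, control before inhibitor. These groups did not overlap between genotypes, unlike the members in controls. Their highest controls were also knockout replicate 1 and reconstituted replicate 3. edgeR called 3 of these 7 markers higher with MAVS under the inhibitor, where it called 0.649% of all genes in either direction. These were the cytotoxic granule genes Gzmb, Prf1 and Gzma. They differed by 2.39 ± 0.39, 2.72 ± 0.46 and 2.80 ± 0.54 (log2 ± SE, edgeR adjusted p = 0.0284, 0.0316 and 0.0462). In bulk tumours, fewer cells of a type and less RNA per cell cannot be told apart.

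The sums of the other marker lists, cytotoxic and NK cells included, had the members' shared order of libraries in at most 1 of 3 groups. In reconstituted inhibitor tumours 3 of the 7 members had the order of replicates 1, 3 and 2. Of the marker sums only that of macrophages had this order there. Macrophage markers (7 of 7 tested) summed to 1097 to 1438 CPM in knockout and 1500.0 to 1785 CPM in reconstituted tumours under the inhibitor, and to 1326 to 1686 and 1111 to 1388 CPM in the controls. Their sums did not overlap between genotypes under the inhibitor. Taken singly, 1 of the 7 had every reconstituted library above every knockout library, beside 10.9% of all genes. The median MAVS difference of the 7 there was 0.089. edgeR called 0 of the 7, beside 0.649% of all genes, and 3 had an unadjusted p below 0.05, beside 19.7%. Epithelial tumour cell markers (6 of 6) were present in every library, with 5493 to 6059 CPM in knockout and 5320.2 to 7612 CPM in reconstituted tumours under the inhibitor. In controls the sums did not overlap, with 5565 to 5901 CPM in knockout and 4749 to 4972 CPM in reconstituted tumours. Averaged over treatments, edgeR called 2 of the 6 lower with MAVS, where it called 1.56% of all genes in either direction. These 2 were Cldn4 (-0.57 ± 0.11) and Epcam (-0.35 ± 0.069, log2 ± SE). Red blood cell markers (5 of 5) summed to 49.4 to 237 and 59.7 to 294 CPM in the knockout and 32.5 to 53.5 and 50.6 to 112 CPM in the reconstituted groups, control before inhibitor, with a median averaged MAVS difference of -1.55. edgeR called 0 of these 5 in the averaged comparison, where it called 1.56% of all genes. There 5 of 5 had an unadjusted p below 0.05, as had 2700 of the 17885 genes tested. Fibroblast and pericyte markers (6 of 6) had 5035 to 9684 CPM in knockout and 2133 to 6239.9 CPM in reconstituted tumours under the inhibitor, and endothelial markers (5 of 5) 157 to 187 and 132 to 169.8 CPM. Skeletal muscle markers (5 of 5) ranged from 43.1 to 2074 CPM within the reconstituted inhibitor group alone, the highest being replicate 1. Without that library the median MAVS difference of the 7 IRG genes under the inhibitor was 1.74. The part of any of these cell types in the IRG values was not tested.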

How the data were processed

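RNA was measured in 12 tumour libraries, 3 in each of 4 groups taken from the sample titles. The table that the authors deposited holds raw counts per gene and library. The submitters' processing notes list Trimmomatic, HISAT2, StringTie and the builds GRCm38 and mm10, without versions or roles. The sources used here do not give the strand setting or how shared reads were counted. Totals ran from 52983715 to 69108411, and 27547 of 45777 genes had a count.

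A model with 4 group means was fitted to the 12 libraries in edgeR 4.0.16 (R 4.3.3), after filterByExpr, which left 17885 genes, and TMM scaling (factors 0.920 to 1.03). The quasi-likelihood F-test was adjusted by Benjamini-Hochberg over all genes in each of 7 comparisons. The procedure had been tested on simulated data. Alternatives were RLE size factors, no filter, DESeq2 1.42.0, limma-voom (3.58.1), only the libraries compared, a replicate block, each library left out, Tgtp1 and Tgtp2 summed, and, added later, both ends of the first component left out.

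The members and lists were chosen with earlier results of these data known. Named genes were the 7 members, Mavs, Ttk, up to 5 called genes of each list, preset genes of the interferon gamma axis (Ifng, Irf1, Irf9 and Nlrc5 given) and the 8 genes most like the members. One gene that this rule names is not reported here. Other genes with values, such as relatives of the members, receptors and other list genes, were named after their values were seen. Ttk, the drug target, had a MAVS difference of -0.082 under the inhibitor. Sequences came from RefSeq (GRCm38.p6, promoters) and GENCODE M21 (GRCm38, exon lengths and transcripts, aligned with Biopython 1.88).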

Additional observations from a re-analysis of the deposited data

How the results depend on the processing

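In each of the 7 comparisons edgeR called 0 members, and the count stayed at 0 to 0 with each library left out and under the other alternatives run except DESeq2. The fit of only the libraries compared was run for the 4 comparisons between single groups. DESeq2 called 4 members for the MAVS effect under MPS1 inhibition and 3 for the MAVS effect averaged over treatments (adjusted p 0.023 to 0.0461 and 0.00747 to 0.0402); the cause was not tested. Over all genes it called 1168 and 941, against 116 and 279 in edgeR. Of the 959 values of single members under an alternative, 932 kept their sign and side of the threshold, 7 passed it and 20 changed sign. Leaving out single libraries, the MPS1 inhibitor effect in knockout tumours ran over -0.22 to 1.29 for Iigp1, -0.22 to 0.80 for Igtp, -0.23 to 0.46 for Irgm1, -0.13 to 0.67 for Irgm2, -0.11 to 0.96 for Tgtp1, -0.13 to 1.06 for Tgtp2 and -0.35 to 0.46 for Ifi47 (median -0.20 to 0.80). The MAVS effect without inhibition ran over -0.099 to 1.64 for Igtp, -0.062 to 1.50 for Tgtp1, -0.22 to 1.56 for Tgtp2 and -0.41 to 1.06 for Ifi47 and 0.46 to 1.70 for Irgm2 (median -0.062 to 1.56). Ifi47 in knockout tumours (-0.043) was 0.013 with limma-voom and 0.13 with the replicate block.

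Groups share replicate numbers in the labels. Deviations of same-numbered libraries correlated at -0.113 to 0.307 over 18 pairs (median 0.0881), 9 of them above 0.1. Over 36 pairs with different numbers the correlations were -0.367 to 0.341 (median -0.053), 7 of them above 0.1. Of the 12 libraries, 6 correlated best with their own number. Same-numbered libraries were thus somewhat more alike. The labels name no pairing, so the main fit did not use the numbers, and a replicate block was run as an alternative. With the replicate block the count of members called was 0 in each comparison, and over all genes 43 were called for the MAVS effect under inhibition and 207 for its average. Each member had at least 1448 counts in every library.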
